A study of Mus musculus with 22 samples.

Results

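Imprinted mouse genes, 9 in all, were examined in rRRBS libraries of E10.5 forebrains: H19, Igf2, Meg3, Dlk1, Rasgrf1, Mest, Ndn, Magel2 and Mkrn3. Their CpGs were taken from 5 kb upstream to 5 kb past each gene in the RefSeq annotation of GRCm38, wherever a CpG had 10 or more reads on a strand. These windows held 855 such CpGs, of 2095436 on the autosomes of the whole series. In rRRBS, genomic DNA is cut with MspI at CCGG sites, treated with bisulfite so that unmethylated cytosines are read as thymines, and sequenced from the fragment ends. The values are the share of reads at a CpG that carried a methylated cytosine, called its methylation level. All embryos were C57BL/6 and wild type, and each library came from 1 forebrain. The 6 control embryos (Ctrl) came from dams injected with saline, and the 16 EtOH-exposed embryos (EtOH) from dams given 2 subcutaneous injections of 2.5 g/kg ethanol, 2 h apart, at E2.5. By the study's methods the embryos had no visible defects and came from 3 control and 6 EtOH litters, and forebrains of both sexes were used. The labels give neither litter nor sex, so the tests over embryos treat them as independent, and their p-values measure the spread between these samples. Dams were injected, not embryos, so these p-values can be too small if littermates resemble each other. The comparison asks whether levels at loci with parent-specific methylation differed in the forebrain 8 days after the exposure.

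At an imprinted locus the copies inherited from the mother and the father carry different DNA methylation. At the control region of a domain it is set in the germ line and kept through the demethylation that other sequences undergo before implantation. At other sequences of the domain, such as the promoters of H19, Meg3 and Ndn, it is acquired after fertilization. A locus with methylation on a single parental copy therefore gives a level near 50% in a bulk tissue. At H19 with Igf2, Meg3 with Dlk1, and Rasgrf1, the germline mark sits on the paternal copy. At Mest and at the Prader-Willi region genes Ndn, Magel2 and Mkrn3 the silent, methylated copy is the maternal one. A bulk level averages over cells and over both parental copies, so loss in some cells, loss on part of the copies, and a change of parental origin cannot be told apart. No RNA was measured in these libraries, so the forebrain label was not checked against marker genes.

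The 4 stretches of sequence below carried most of the CpGs that could be read near 50%, and they are shown here because the levels of Mest, Magel2 and Mkrn3 rest on them. They were read from GRCm38 on the strand of the gene, 5′ to 3′, and capitals mark the measured CpGs with a control level of 30 to 70%.
Mest intron, chr6:30739246-30739349, plus strand: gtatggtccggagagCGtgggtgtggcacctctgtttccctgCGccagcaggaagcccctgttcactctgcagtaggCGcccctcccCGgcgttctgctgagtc
Magel2 coding exon, chr7:62377411-62377474, plus strand: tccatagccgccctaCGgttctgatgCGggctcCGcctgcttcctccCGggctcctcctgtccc
Magel2 coding exon, chr7:62377675-62377835, plus strand: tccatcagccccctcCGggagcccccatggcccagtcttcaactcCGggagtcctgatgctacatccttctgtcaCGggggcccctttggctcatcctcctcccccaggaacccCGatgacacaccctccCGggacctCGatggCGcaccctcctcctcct
Mkrn3 coding exon, chr7:62419185-62419230, minus strand: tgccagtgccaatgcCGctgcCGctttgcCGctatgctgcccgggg
The Mkrn3 stretch holds the letters TGCCGC, known as the hexamer bound by the zinc finger protein ZFP57 that protects imprints in the early embryo. On either strand, these letters covered all 3 capital CpGs of the Mkrn3 stretch and 0 of those in the Mest and Magel2 stretches. Outside the stretch shown, they also covered the Mest CpG in the band 695 bp upstream. They occurred in 11.6% of 32851 RefSeq promoter sequences. Places with these letters numbered 3 in the Mkrn3 window (12561 bp), 16 in the Mest window (24961 bp) and 5 in the Magel2 window (14662 bp). A share of promoters with a match is no background for counts of places in a window. A match is a description of the letters, not of binding.

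Of the 3985 CpGs in the 9 windows, 193 were measured, which here means read at that depth in 5 or more embryos of each condition. Of these 193 CpGs, 32 had a control mean of 30 to 70%, 145 lay below 30% and 16 above 70%. The 32 were spread over 7 genes, with 14 at Magel2, 5 at Mest, 5 at Mkrn3, 3 at H19, 2 at Meg3, 2 at Dlk1 and 1 at Rasgrf1. Igf2 had 81 measured CpGs and none in this band, and Ndn had no measured CpG. The control means just inside the band were 30.1% at Mkrn3 and 30.2% at H19, and just outside it 29.8% at H19 and 74.6% at Mkrn3. Since the control levels chose the CpGs, the control side of each comparison is not independent of that choice.

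**Figure D1:**
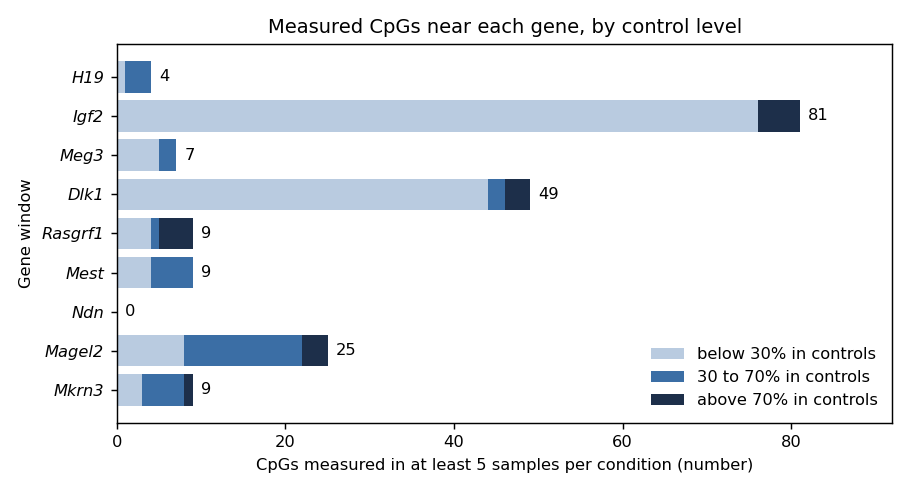
Number of CpGs measured in 5 or more embryos of each condition (x axis) in the window of each gene (y axis), with bars divided by the mean control level. Igf2 has the most with 81, of which 0 lie at 30 to 70%, while 14 of the 25 at Magel2 do and Ndn has 0.

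The files held 68126469 to 132488556 methylation calls per control and 89179413 to 216223892 per EtOH-exposed library. EtOH-exposed libraries 4, 5 and 6 stood apart: at unmethylated tiles (100 bp windows) they read 2.41 to 2.54%, against 0.260 to 1.52% in the other libraries. EtOH-exposed libraries 1, 2, 3, 9, 12 and 14 read 0.260 to 0.313%, below every control (0.672 to 1.52%). Neither of these sets holds a control. The library group named below holds the 6 controls with EtOH-exposed libraries 7, 8, 10, 11, 13, 15 and 16. Highly methylated tiles were read less deeply than unmethylated ones in some libraries. On a log2 scale relative to controls this coverage ratio averaged -0.02 in controls, with Ctrl 2 at -1.08, and -0.79 in EtOH-exposed embryos, with embryos 4, 5 and 6 at -2.21 to -2.02 (p = 0.0609 by an exact permutation test, two-sided as are all tests here). Outside the 9 windows, tiles at 30 to 70% in controls and read in all samples averaged 52.1% ± 0.824 (SD, n = 6) in controls and 46.6% ± 5.72 (SD, n = 16) in EtOH-exposed embryos, a difference of -5.45 percentage points (exact permutation test, p = 0.0310). By this mean 12 of the 16 exposed embryos lay below every control. It is 1 mean over many tiles per embryo, with controls at 51.1 to 53.5%. Levels of a gene rest on few CpGs and had wider control ranges, so counts there are not like for like. These library values are set beside the loci below.

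H19 was read upstream of its start site and its level was lower in EtOH-exposed embryos. H19 makes a long non-coding RNA from the maternal copy, and methylation of its promoter and upstream control region on the paternal copy keeps it silent there. Its 4 measured CpGs lay 45 to 96 bp upstream, at chr7:142578191-142578242 on the minus strand, and 3 of them were in the 30 to 70% band. Over these 3 CpGs the control levels were 29.5% (Ctrl 2), 29.7% (Ctrl 3), 29.8% (Ctrl 1), 31.6% (Ctrl 5) and 36.9% (Ctrl 4), with no value for Ctrl 6. The EtOH-exposed levels ran from 8.0% in embryo 4 through a median of 20.9% to 35.4% in embryo 12. Of the 16 exposed embryos, 12 lay below every control and 4 lay within the control range. By the mean over the other tiles at 30 to 70%, with a narrower control range, the number below every control was also 12. Mean levels were 31.5% ± 3.14 (SD, n = 5) and 21.0% ± 9.12 (SD, n = 16), which is -10.5 percentage points (p = 0.0223 by the exact permutation test over 20349 assignments). The control means of the 3 CpGs were 30.2 to 33.0%, just inside the band and below the level expected of a single methylated copy. Choosing CpGs by control levels favours a fall in exposed embryos. With the band set on all samples, too few CpGs of H19 remained for a test. A band of 20 to 80% in controls took in all 4 measured CpGs. The difference was then -10.1 percentage points (p = 0.0249, exact permutation test).

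The single CpGs of H19 gave the same order of sizes, from -11.8 to -9.21 percentage points. The CpG 93 bp upstream had 3 methylated of 53 reads in EtOH-exposed embryo 4, or 5.66% (95% Wilson interval 1.94 to 15.4%), and 24 of 68 reads in Ctrl 2, or 35.3% (25.0 to 47.2%). The intervals reflect counting error alone, because PCR copies were not told apart from separate molecules. EtOH-exposed levels at H19 were also more spread out: the mean distance from the group median was 7.59 percentage points against 1.87 in controls (exact permutation test, p = 0.0183). That call was lost relative to the other tiles at 30 to 70%, where the excess fell from 5.72 to 2.97 percentage points (exact permutation test, p = 0.0776). In all tests of spread, distances were taken from each group's own median before they were permuted, so those p-values are approximate. With 5 controls the median is itself a control at distance 0, which favours a wider exposed spread. The H19 difference depended on few libraries. It was -9.13 percentage points without Ctrl 4 (p = 0.0669, exact test) and -8.20 without EtOH-exposed embryos 4, 5 and 6 (p = 0.0545, exact test). It also did not pass relative to the other tiles at 30 to 70% (-4.93, p = 0.0764) or with the coverage ratio as a covariate (-4.52, p = 0.147, exact tests). For gene levels this covariate was fitted first, without the condition, and the residuals were compared between groups.

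Farther upstream, where the control region of H19 and Igf2 lies, coverage was thin. The core motif of CTCF, the insulator protein that binds this region when it is unmethylated, matched 3 places 2.16 to 3.89 kb upstream of H19 and none in the other 8 windows, and it occurs in 0.0365% of all promoter sequences. The nearest measured CpG was 2067 bp or more from each match. Between 2.996 and 3.24 kb upstream, 4 CpGs had 10 reads in some samples. At the best covered of them, 3.04 kb upstream, 3 controls read 58.7%, 58.7% and 53.8%, and the 5 EtOH-exposed embryos with a value read 25.0% (embryo 4), 19.2% (5), 21.0% (6), 27.3% (15) and 29.0% (16). All 5 lay below the 3 controls on 11 to 73 reads each, and since embryos 4, 5 and 6 are the libraries that stood apart and so few samples had reads, no test was made. Just past the start site, 3 to 102 bp, 5 CpGs were as thinly read and the exposed embryos lay on both sides of the control. There Ctrl 5, the only control with a value, read 41.7 to 50%, and EtOH-exposed embryos read 35 to 50% (embryo 4), 58.8 to 64.7% (5), 34.4 to 43.3% (6), 66.7 to 73.7% (11) and 41.7 to 50% (16), on 12 to 33 reads per CpG. Embryos 5 and 11, at 13.7% and 13.2% over the CpGs upstream, lay above that control at all 5, and embryos 4 and 6 lay below it at 4 and 5 of them. Upstream of the start, between the tested CpGs and the CTCF matches, 5 further CpGs had values in Ctrl 6 (61.8 to 76.6%) and in EtOH-exposed embryos 5 (26.0 to 62.4%), 6 (6.67 to 66.7%) and 16 (49.2 to 68.7%), and the exposed means were below Ctrl 6 at each.

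Igf2, the insulin-like growth factor expressed from the paternal copy, had no measured CpG near 50%. Its 81 measured CpGs had a median control level of 1.01% and a median EtOH-exposed level of 1.13%. Only 5 of them were above 70%, at 2840 to 2975 bp upstream of the nearest start site, with control means of 92.7 to 97.6%. These 5 moved by -2.71 to 2.5 percentage points. Of the 16 Igf2 tiles tested, 0 were called by the tile test described below.

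Meg3 and Dlk1 share a domain on chromosome 12, in which Meg3 makes a maternal non-coding RNA and Dlk1 a paternal transmembrane ligand of the Notch family. Each had 2 CpGs in the band, too few for a test in the 5 kb window. At Meg3 the CpG 612 bp past a start site, in an exon at chr12:109546010, read 25.7 to 36.2% in 5 controls. The 14 EtOH-exposed embryos with a value there ran from 10.2% through a median of 18.04% to 47.1% (embryo 13), with 12 below every control. The CpG 405 bp upstream of Meg3 read 38.5 to 70% in 5 controls and 0 to 58.3% in 8 EtOH-exposed embryos, with a median of 47.7% and only 3 below every control. Its reads numbered 10 to 91 per sample. The value of 0 came from embryo 7, and 5.88% from embryo 8, on 11 and 17 reads.

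The CpGs of Dlk1 at 30 to 70% lay 3838 and 3974 bp upstream. The nearer one averaged 49.0% ± 13.5 (SD, n = 5) in controls and 44.4% ± 17.1 (SD, n = 12) in EtOH-exposed embryos. The farther one averaged 62.0% ± 9.40 (SD, n = 5) and 57.2% ± 12.4 (SD, n = 10). Both differences were smaller than the spread between controls, and 2 and 3 embryos lay below every control. Of the 3 measured CpGs above 70% beside them, the outermost, at chr12:109448404, averaged 83.0% ± 8.60 (SD, n = 5) in controls and 52.1% ± 21.7 (SD, n = 9) in EtOH-exposed embryos, with 6 of 9 below every control on 10 to 64 reads, and the other pair differed by -7.66 and -10.05 percentage points. The lowest value at the nearer CpG in the band was 7.89%, in EtOH-exposed embryo 5, on 76 reads.

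A wider window, from 40 kb upstream, brought 2 more CpGs of Meg3 into the band, 15.2 and 15.3 kb before its start, between Dlk1 and Meg3. They averaged 44.5% ± 7.55 and 53.8% ± 4.37 in controls (SD, n = 5) and 37.3% ± 16.3 and 45.8% ± 13.8 in EtOH-exposed embryos (SD, n = 16). Over the 4 CpGs of Meg3 the level was 46.2% ± 4.05 (SD, n = 6) in controls and 35.3% ± 10.9 (SD, n = 16) in EtOH-exposed embryos. The difference was -10.9 percentage points (exact permutation test, p = 0.0288), and 9 of 16 exposed embryos lay below every control. It no longer passed without EtOH-exposed embryos 4, 5 and 6 (-8.19, p = 0.0747), relative to the other tiles (-5.42, p = 0.0768) or with the coverage covariate (-3.39, p = 0.286, exact tests), nor without Ctrl 1, 2 or 6 alone (p = 0.0602, 0.0557 and 0.0528, exact tests). The exposed embryos ranged from 19.5 to 49.9% with a median of 36.02%.

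Rasgrf1, a guanine nucleotide exchange factor expressed in brain, had 1 CpG in the band within 5 kb, in an intron at chr9:89972463. It showed no difference of the means, at 46.5% ± 7.03 (SD, n = 5) and 46.6% ± 13.7 (SD, n = 12). The EtOH-exposed values ran from 25.4% (embryo 2) through a median of 45.2% to 71.4% (embryo 10), with 2 below and 4 above every control. The paternally methylated control region of Rasgrf1 lies upstream of the gene, and the window from 40 kb upstream added 6 CpGs at 23.6 to 34.9 kb. At the 3 near 34.9 kb the control means were 57.0 to 60.2% and the EtOH-exposed means 50.5 to 54.0%. At the 3 near 23.7 kb they were 39.6 to 50.8% and 24.2 to 28.6%. Over these 6 and the intron CpG the level was 49.7% ± 5.59 (SD, n = 6) against 40.8% ± 11.01 (SD, n = 16), a difference of -8.94 percentage points that did not pass the test (exact permutation test, p = 0.0724). Without EtOH-exposed embryos 4, 5 and 6 it was -4.65 (p = 0.160), and relative to the other tiles -3.49 (p = 0.216, exact tests). With the coverage covariate it was -0.441 (p = 0.841) and without Ctrl 6 -10.4 (p = 0.0491, exact tests). In that window 7 exposed embryos lay below every control.

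Mest gave the largest difference of the 4 genes tested. Mest, a hydrolase-like protein made from the paternal copy, carries its maternal methylation around an internal promoter, and 4 of its 5 CpGs in the band lay in the intron 1208 to 1280 bp past that start site. The fifth lay 695 bp upstream of the longest transcript. Control levels over the 5 CpGs were 33.1% (Ctrl 3), 36.9% (Ctrl 5), 48.0% (Ctrl 2), 49.9% (Ctrl 1) and 52.2% (Ctrl 4). The EtOH-exposed levels ran from 5.93% in embryo 6 through a median of 30.4% to 50.3% in embryo 3, with 9 of 16 below every control and 7 within the control range. Averages were 44.0% ± 8.45 (SD, n = 5) and 25.8% ± 14.5 (SD, n = 16), a difference of -18.2 percentage points (exact permutation test, p = 0.0168). These CpGs were also chosen by control levels, and with the band set on all samples too few remained for a test. Over the 7 CpGs at 20 to 80% in controls the difference was -13.9 percentage points (exact permutation test, p = 0.0276).

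The 4 intron CpGs each fell by more than the upstream CpG: their differences were -22.6 to -18.4 percentage points, and that of the upstream CpG was -8.45. In the intron CpG at chr6:30739288, EtOH-exposed embryo 6 had 2 methylated of 106 reads, or 1.89% (95% Wilson interval 0.519 to 6.62%), and embryo 3 had 94 of 179, or 52.5% (45.2 to 59.7%). Both are single embryos, the latter the highest of the exposed group, and embryo 6 is among the libraries that stood apart. The wider spread of EtOH-exposed embryos over the 5 CpGs, 12.5 against 6.40 percentage points from the group median, did not pass the test (exact permutation test, p = 0.136). Mest stayed lower by -12.6 percentage points (p = 0.0149, exact test) when each embryo's mean over the other tiles at 30 to 70% was subtracted. With the coverage ratio as a covariate it was -8.26 and did not pass (p = 0.0811, exact test).

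**Figure D2:**
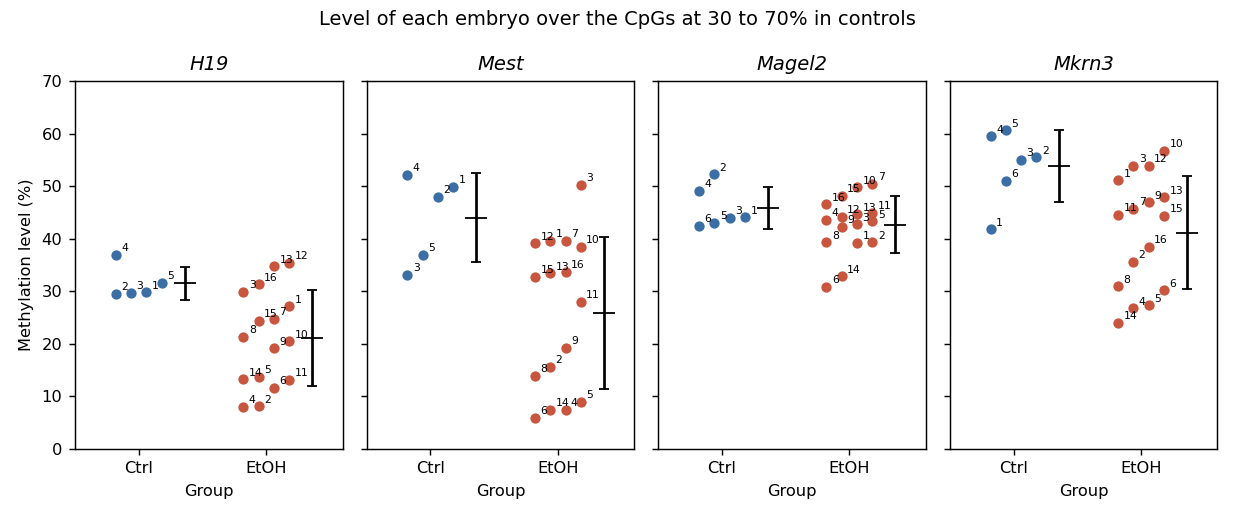
Methylation level in percent (y axis) of each embryo over the CpGs of a gene at 30 to 70% in controls, for Ctrl and EtOH embryos (x axis), with replicate numbers beside the points and bars for the mean ± SD. At H19 12 and at Mest 9 of 16 EtOH embryos sit below every control, while at Magel2 the groups largely overlap. By the mean over the other tiles at 30 to 70%, which has a narrower control range and is not drawn here, 12 do.

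In the Prader-Willi region, Ndn could not be compared. Ndn encodes necdin, a protein of post-mitotic neurons made from the paternal copy. Its window held 20 CpGs with 10 reads in some sample, in at most 2 controls and 4 EtOH-exposed embryos each. The 15 of them in the coding exon read 0 to 22.2% in the single control with a value and had EtOH-exposed means of 2.87 to 13.8%. The 5 located 2939 to 3124 bp past the start site read higher, with control means of 48.6 to 84.3% and EtOH-exposed means of 6.87 to 61.2%. A CpG 12.7 kb upstream of Ndn, in the wider window, averaged 64.9% ± 5.52 (SD, n = 5) in controls and 51.8% ± 19.6 (SD, n = 14) in EtOH-exposed embryos, with 9 below every control.

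Magel2, a MAGE family gene expressed from the paternal copy in brain, had the most CpGs near 50% and no difference that passed the test. Control means were higher in its distal CpGs but varied between neighbours: they were 13.4 to 35.6% within 440 bp of the start site, 33.9 to 41.7% at 447 to 479 bp, 25.1% at a single CpG 570 bp past the start, 45.1 to 65.7% at 711 to 840 bp, and 78.1 to 85.7% at 924 to 1122 bp. Over the 14 CpGs in the band the controls ran from 42.4% (Ctrl 6) through a median of 44.0% to 52.2% (Ctrl 2). The EtOH-exposed levels ran from 30.8% (embryo 6) through 43.4% (median) to 50.4% (embryo 7). Group averages were 45.8% ± 3.95 (SD, n = 6) and 42.6% ± 5.42 (SD, n = 16), a difference of -3.18 percentage points (exact permutation test over 74613 assignments, p = 0.207). Below every control were 6 exposed embryos, and 10 lay within the control range. Ctrl 6 was read at 5 of the 14 CpGs, on 86 reads.

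Within Magel2 the CpGs did not move together. The 4 at 447 to 479 bp had slightly higher means in EtOH-exposed embryos, by 0.480 to 2.62 percentage points. The 7 at 711 to 840 bp differed by -9.06 to 0.156, and the 3 between 252 and 338 bp by -9.85 to -2.74. The control SDs of the 14 CpGs ran from 2.94 to 18.1 percentage points. The difference was larger than the control SD at the CpGs 302 bp (-6.41 against 2.94) and 834 bp (-9.06 against 3.63) past the start, where 12 and 11 exposed embryos lay below every control.

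Mkrn3, an intronless gene for a RING finger protein expressed from the paternal copy, had a lower level in EtOH-exposed embryos. Its 5 CpGs in the band were 4 in the coding exon, 849 to 953 bp past the start site, and 1 located 106 bp upstream. Control levels ran from 41.8% (Ctrl 1) through a median of 55.3% to 60.6% (Ctrl 5). EtOH-exposed levels ran from 23.9% (embryo 14) through 44.4% (median) to 56.7% (embryo 10), with 7 of 16 below every control. On average they were 53.9% ± 6.85 (SD, n = 6) and 41.1% ± 10.8 (SD, n = 16), a difference of -12.8 percentage points (exact permutation test, p = 0.0146). With the coverage ratio as a covariate it did not pass, at -4.80 (p = 0.152, exact test). The spread of the groups, 8.94 against 4.63 percentage points from the median, did not differ by the test (p = 0.158, exact test).

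The 3 CpGs in the Mkrn3 stretch shown above averaged 65.3%, 63.7% and 49.3% in controls and 50.9%, 51.4% and 42.1% in EtOH-exposed embryos. The largest difference at Mkrn3, -22.4 percentage points, was at the CpG of a CCGG site 849 bp past the start, with 10 of 16 exposed embryos below every control. CpGs of CCGG sites lie at fragment ends. Over all 32 CpGs in the band the 13 in CCGG sites had a median difference of -8.34 and the other 19 of -8.45 percentage points, but within Magel2 the medians were -5.05 in CCGG sites and -0.296 elsewhere, within Mest -22.6 and -19.0, within Mkrn3 -15.4 and -12.3, and within Meg3 -17.9 and -10.5. At H19 the order was the opposite, with -9.21 and -11.1, and at Dlk1 the values were -4.67 and -4.80. Without CCGG sites Mkrn3 differed by -11.3 (p = 0.0419, exact test) and Mest by -17.1 percentage points (p = 0.0189, exact test).

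**Figure D3:**
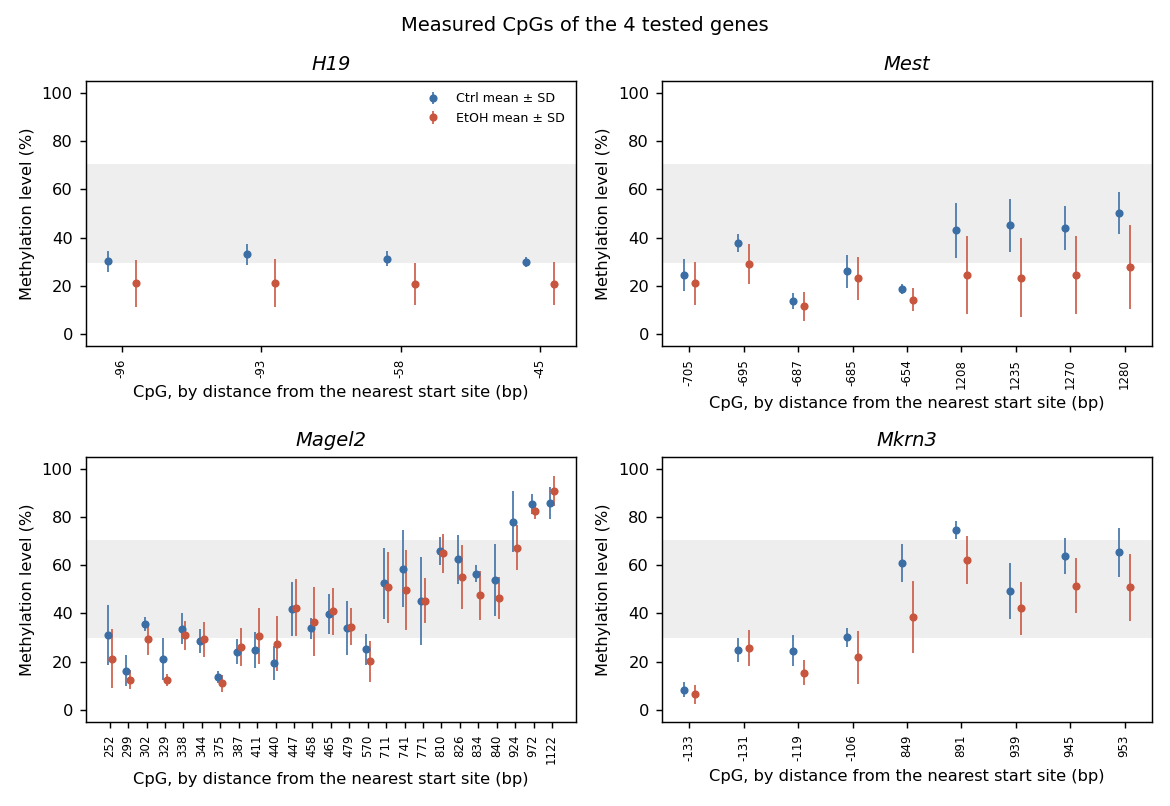
Mean methylation level in percent (y axis) of every measured CpG of the 4 tested genes in Ctrl and EtOH embryos, with SD bars, against the CpG's distance from the nearest start site in bp (x axis, evenly spaced and ordered). Grey marks 30 to 70%. The means lie farthest apart at the Mest CpGs 1208 to 1280 bp past the start and at the Mkrn3 CpG 849 bp past it, with overlapping single values, and lie close together at the Magel2 CpGs 447 to 479 bp past the start.

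The differences of the tested genes were compared within embryos, a test chosen after the values had been seen, with p-values not adjusted over the 6 pairs. The change at Magel2 was smaller than at Mest by 14.3 percentage points (exact permutation test, p = 0.0203) and smaller than at Mkrn3 by 9.59 (exact permutation test, p = 0.0293). The other 4 pairs of genes did not differ in this test, with p = 0.105 to 0.482. The difference between H19 and Magel2 was -6.63 percentage points (exact permutation test, p = 0.113).

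The CpGs in the band were also grouped by the copy that carries the mark at each locus, without a test. Paternally methylated loci (H19, Meg3, Dlk1 and Rasgrf1) gave 8 and maternally methylated loci (Mest, Magel2 and Mkrn3) gave 24. Parental origin was read at no CpG, and a level in the band does not show a parent-specific mark. The Rasgrf1 CpG, for example, lies in an intron 62.7 kb past a start site. Each embryo's level was taken as its mean distance from the control means of the same CpGs. At paternally methylated loci the exposed embryos ran from -20.9 through a median of -11.1 to 5.24 percentage points, with 13 of 16 below 0, and 9 below every control. At maternally methylated loci they ran from -21.8 through -5.62 to 1.43, with 15 of 16 below 0 and 11 below every control. The controls ranged from -2.64 to 2.88 and from -3.78 to 4.82. By CpG, 7 of 8 and 19 of 24 had a lower mean in EtOH-exposed embryos. No such share was taken over all CpGs in the band. Most of the 5491 tiles in the band were lower too, with a median difference of -4.25 percentage points. CpGs of a gene are neighbours read in the same embryos, so these counts are no test of the members. The medians of the sets depend on how many CpGs each gene gave, with 14 of the 24 from Magel2. By gene the exposed medians were -10.6 (H19), -14.35 (Meg3), -2.13 (Dlk1) and -1.335 (Rasgrf1), and -13.6 (Mest), -2.58 (Magel2) and -9.43 (Mkrn3). Embryos also differed in which CpGs they had.

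The same exposed embryos were low at several genes. Embryos 2, 4, 5, 6, 8 and 14 lay below every control at H19, Mest and Mkrn3, and 2, 6, 8 and 14 of them at Magel2 too. Embryos 3, 12 and 13 lay below the controls at none of the 4. The 6 embryos low at the 3 genes were also low over the other tiles at 30 to 70%, with 37.7 to 44.9%, and in the coverage ratio, with -2.21 to -1.08. Ctrl 2 had a ratio of -1.08 as well, with 52.3% over the other tiles, and was the lowest control at H19 only. Embryos 3, 12 and 13 had 49.7 to 54.0% over those tiles and -1.01 to 0.03 in the coverage ratio. With the coverage ratio as a covariate, tested on residuals, none of the 4 genes passed. As the ratio was fitted without the condition, this removes part of a group difference that goes along with the ratio. Relative to the other tiles, Mkrn3 differed by -7.32 percentage points (p = 0.0290, exact test) and passed, as did Mest, whereas H19 and Magel2 did not. Exposure and coverage ratio cannot be fully told apart here, since the lowest ratios were all in EtOH-exposed libraries.

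**Figure D4:**
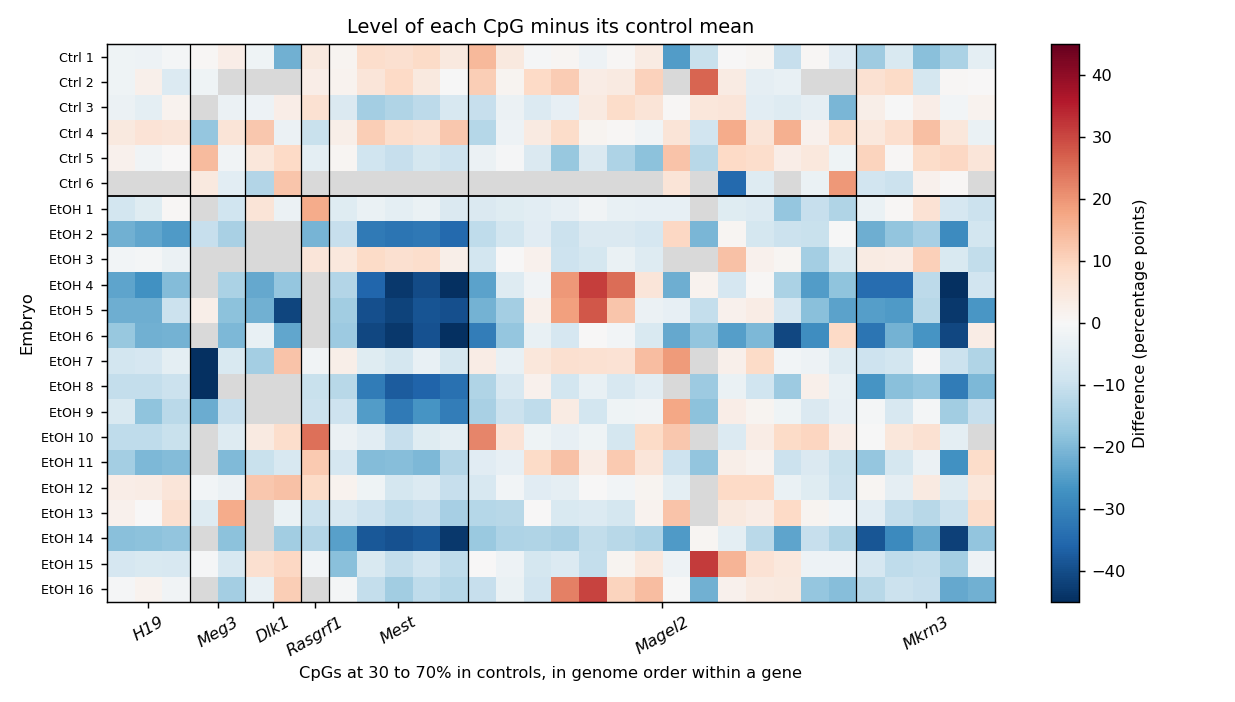
Level of each CpG at 30 to 70% in controls minus its control mean, in percentage points by colour, which saturates at 45 in either direction, for each embryo (y axis) and CpG grouped by gene (x axis); grey marks no value. At the 5 Mest CpGs 13 of 16 exposed embryos are below the control mean throughout, while the 14 Magel2 CpGs show both colours in 15 of 16 exposed embryos.

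**Figure D5:**
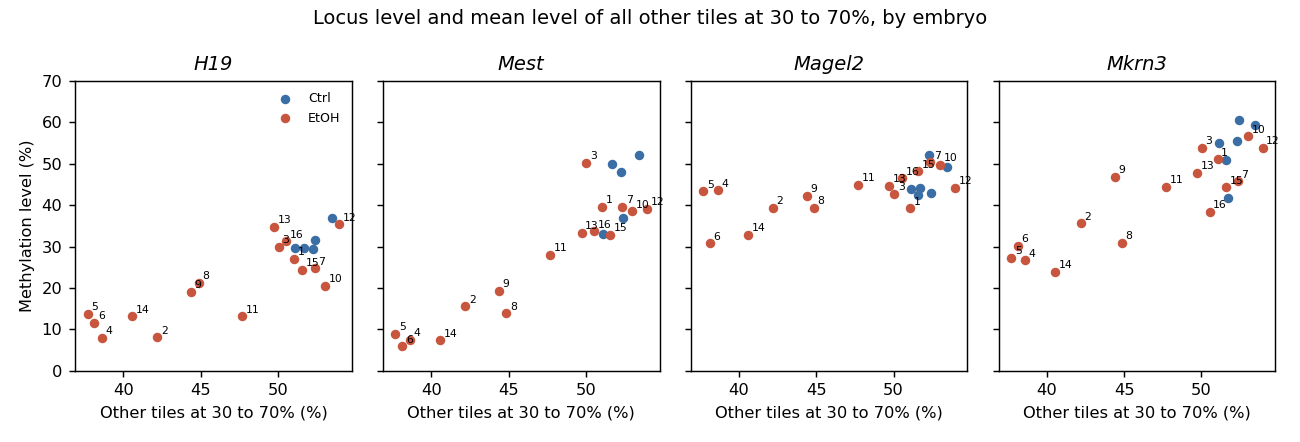
Level of each embryo at the 4 tested genes in percent (y axis) against its mean over the other tiles at 30 to 70% in percent (x axis), with numbers for EtOH embryos. The EtOH embryos with 37.7 to 44.9% over the other tiles are the lowest at Mest, at 5.93 to 19.3%, whereas embryos 4 and 5 sit at 43.6% and 43.3% at Magel2.

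A logistic model of methylated reads in 100 bp tiles with at least 2 CpGs, the kind of test the study used, was run over all 114430 autosomal tiles. Calls needed a Benjamini-Hochberg adjusted p under 0.01 and 10 or more percentage points between the levels weighted by reads. Of the 41 tiles in the 9 windows, 6 were called lower in EtOH-exposed embryos and 0 higher: 2 at Mest and 1 each at H19, Meg3, Dlk1 and Mkrn3. The calls at Meg3 and Dlk1 depended on weighting by reads. With every embryo weighted equally their tiles differed by -6.77 and -7.55 percentage points, under the limit, and 4 member tiles were called, against 1.67% of all tiles lower. Over all tiles 1.08% were called lower and 0.0516% higher. Most tiles are unmethylated and can hardly fall, so tiles of the same control level are the closer background. Of the 7 member tiles at 30 to 70% in controls, 4 were called lower, against 14.9% of all 5491 such tiles. By the exact permutation test, 4 of these 7 had p under 0.05 and were lower and 0 were higher, against 17.2% and 0.728% of all such tiles. The median difference of the 7 was -10.4 percentage points and that of the 5491 was -4.25. The 7 tiles are not independent: 3 lie at Magel2, 2 adjoin each other at Mest, and 1 each lies at H19 and Mkrn3. All were read in the same embryos, so these shares are no test of the members.

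Among the tiles in the band, the one with the most reads was taken for each gene. At Mest (chr6:30739201-30739300) the weighted levels were 42.4% and 25.9% in controls and EtOH-exposed embryos, at H19 (chr7:142578201-142578300) 30.9% and 20.4%, and at Mkrn3 (chr7:62419201-62419300) 64.7% and 53.7%. At Magel2 (chr7:62377401-62377500) they were 37.7% and 33.3%, a difference of -4.36 percentage points that was not called and that turned to 2.45 with every embryo weighted equally (33.7% and 36.2%). Exact permutation tests over embryos, each weighted equally, gave p = 0.0198 at Mest, 0.0249 at H19, 0.0294 at Mkrn3 and 0.609 at Magel2. The logistic model takes reads as independent and ignores the spread between embryos. With that spread estimated for each tile, 0 of the 41 tiles were called, although 6 had an unadjusted p under 0.05, against 5.77% of all tiles, and limma on log2 ratios called 0, with 4 under 0.05, against 4.45% of all tiles. Over all 114430 tiles both also called 0. Without EtOH-exposed embryos 4, 5 and 6, 2 member tiles were called, both at Mest (0.329% of all tiles called lower), and the same 2 without Ctrl 4 (0.982%). Without embryo 4 or 5 alone, 3 were called, at Mest and Mkrn3 (0.828% and 0.818%).

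Other imprinted genes were set beside the members as lists. A first list took imprinted loci at which the study reported altered methylation, with further transcripts of the same loci added. Of 71 tiles at 30 to 70% near 18 genes of that list, 41 were called lower and 0 higher, against 14.9% of all such tiles. By the exact permutation test 19 were lower with p under 0.05, against 17.2%. Their median difference was -11.9 percentage points. The list rests on differences the study reported in these same libraries, so it is not independent evidence of a direction. Near 9 neighbours of the members (Ins2, Nctc1, Rtl1, Rian, Mirg, Dio3, Copg2, Klf14 and Peg12), 5 tiles were in the band and 4 were called lower. They lay at Rtl1 and Rian, in the same domain as Meg3, where the tiles of Rtl1 are also counted for Rian, with median differences of -21.4 and -24.2 percentage points, and at Peg12 in the Prader-Willi region, where 1 of 2 was called. The other 6 neighbours had no tile in the band.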

How the data were processed

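Genomic DNA of 22 forebrains (6 Ctrl, 16 EtOH) was profiled by rRRBS. The authors trimmed reads with Trim Galore 0.3.3 and aligned them to mm10 with BSMAP 2.90, per the labels, and deposited for each embryo the read count covering each CpG and strand and the percent of those reads methylated, rounded, with nothing pooled. Methylated reads were recovered from count and percent. CpGs with fewer than 10 reads were left out. MspI sites and PCR copies were not removed.

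A gene's level in an embryo came from a fit of embryo and CpG effects, blind to condition, over its CpGs at 30 to 70% in controls, where it had at least 3. Groups were compared with exact permutation tests over embryos. These p-values were not adjusted over the 4 genes tested, and passing means an unadjusted p under 0.05. Tiles were tested over all autosomes, with limma 3.58.1 as an alternative. Scripts ran under Python 3.11.15, scipy 1.17.1 and R 4.3.3 and were tested on simulated data. Gene models and promoters came from RefSeq GRCm38. Promoter sequences matched 8 of 9 members, all but H19. For each gene the tile named was the one at 30 to 70% with the most reads. The members, lists and tests were chosen with earlier results of these data known. Comparisons between pairs of genes, the alternatives of the wider windows, the library group and leaving out EtOH 4, 5 and 6 were added after seeing the data. The test of samples numbered 1 to 6 without the block was not planned either.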

Additional observations from a re-analysis of the deposited data

Results flagged for a closer look

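Among the controls at H19, Ctrl 4 had 36.9% and stood apart from the other 4, which lay between 29.5 and 31.6%. Its gap to the next value was 0.716 of the range of the 5 controls. Chance sets apart about 1 in 20 groups by this measure, and 14 groups were examined. The H19 difference without Ctrl 4 was -9.13 percentage points (p = 0.0669, exact permutation test), against -10.5 with it.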

How the results depend on the processing

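Over all alternatives of the level, Mest stayed between -22.7 and -8.26 percentage points, Mkrn3 between -16.4 and -4.80 and H19 between -15.1 and -4.52. Relative to other tiles at 30 to 70%, H19 was -4.93 and its spread 2.97 (p = 0.0776, exact test), both no longer past the test, and Magel2 reversed to 2.27. With coverage of methylated tiles as covariate, tested on residuals, H19 was -4.52, Mest -8.26 and Mkrn3 -4.80, none past the test. In the tile model, which held this covariate and the condition together, 0 member tiles were called, against 130 lower and 293 higher over all tiles (1240 and 59 without it). In the library group of 6 controls and 7 exposed embryos, chosen after seeing the data, H19 was -7.20 (p = 0.0581, exact test) and did not pass. There Mest was -12.6 (p = 0.0316) and Mkrn3 -9.83 (p = 0.0390, exact tests), both past the test, and Magel2 was 0.447. In that group 3 of 39 tiles were called (864 lower of 109713 over all, 0.788%). Without EtOH 4, 5 and 6, H19 was -8.20 and did not pass, and 2 tiles were called (375 over all). Mest was then -13.9 (p = 0.0363) and Mkrn3 -9.76 (p = 0.0387, exact tests), both past the test. With 5 reads H19 was -10.01 (p = 0.0506, exact test). Tile counts were 0 with estimated spread, with limma and at 20 percentage points (0.0856% over all tiles), 10 of 70 with 3 samples per condition (4550 over all, 2.43%) and 1 of 10 with all 22 samples (218 over all, 0.575%). Over the wider window Meg3 was -5.42 relative to other tiles, -3.39 with the covariate and -8.19 without EtOH 4, 5 and 6, none past the test. Leaving out single embryos gave -11.4 to -9.13 at H19, -20.9 to -16.1 at Mest, -3.86 to -1.90 at Magel2, -15.2 to -11.4 at Mkrn3, -12.03 to -9.82 at Meg3 and -10.4 to -7.62 at Rasgrf1 in the wider window, and 2 to 6 tiles (0.818 to 1.54% over all). The causes were not tested. H19 could not be fitted without CCGG sites, nor H19, Mest or Magel2 on CpGs read in all samples, nor H19 and Mest with the band set on all samples, for want of 3 CpGs.

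With the replicate block, H19 was -14.1 (p = 0.125), Mest -19.7 (p = 0.188) and Mkrn3 -16.4 (p = 0.0938, exact tests). The smallest p possible is 0.0625 with the 5 pairs of H19 and Mest and 0.0312 with the 6 of Mkrn3. Samples numbered 1 to 6 without the block, an unplanned setting with 11 samples at H19 and Mest and 12 at the others, passed the test at H19 (p = 0.0216), Mest (p = 0.0498), Mkrn3 (p = 0.0216) and Magel2 (-5.97, p = 0.0281, exact tests). The exposed samples of that setting include EtOH 4, 5 and 6, the libraries that stood apart. Over all samples Magel2 did not pass (p = 0.207, exact test). In the library group, which lacks these libraries, it was 0.447 (p = 0.8345, exact test). With the block 5 of 31 tiles were called (2.31% over all tiles), 4 of them among the 6 called without it. Samples sharing a number correlated at -0.141 to 0.233, and 1 of 6 correlated best with its own number, so the numbers do not pair the samples. Depth limits Ndn and the H19 upstream region, where few embryos had 10 reads.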
